A study of Mus musculus with 96 samples.

Results

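The genes of Polycomb repressive complex 2 (PRC2) were followed through single mouse embryonic stem (ES) cells and single mouse embryonic fibroblasts (MEFs). The 10 genes were Ezh1, Ezh2, Eed, Suz12, Rbbp4, Rbbp7, Mtf2, Phf19, Jarid2 and Aebp2. They were taken by symbol from the 21711 gene rows of the expression table, and each symbol gave 1 row. All 10 had enough reads to be measured, which here means at least 20 reads over both cell types. The ES cells were of the R1 line, a pluripotent line from the early mouse embryo. The MEFs, adherent connective tissue cells of the embryo, were grown in DMEM with serum, while the ES cells had a culture of their own. The labels give neither the strain nor the embryonic age of the MEFs, and they name R1 as source line for the MEF wells as well, which conflicts with the cell type label. No cell carried a treatment or an engineered allele.

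PRC2 is the enzyme complex that methylates lysine 27 of histone H3, a mark of silent developmental genes. Ezh1 and Ezh2 are alternative catalytic subunits, Eed and Suz12 are required for the complex to be active and stable, and Rbbp4 and Rbbp7 are histone-binding subunits that other chromatin complexes also use. Accessory subunits define different forms: Mtf2 and Phf19 are Polycomb-like proteins that help recruit the complex to CpG islands, whereas Jarid2 and Aebp2 belong to a form of their own. In ES cells PRC2 is known for holding genes of later lineages silent, and the cells survive without it but differentiate poorly.

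The transcripts were read from the 5′ end by single-cell tagged reverse transcription (STRT), on 1 plate of 96 wells with 48 ES cells, 44 MEFs and 4 negative controls. Wells with at least 10000 gene reads were used, which kept 45 ES cells and 44 MEFs. A median ES well held 161206 gene reads (13576 to 703423), and a median MEF well held 851801 (63938 to 1883709). Negative control wells held 236 to 4662 gene reads. Reads of spike-in RNA outnumbered gene reads in all 4 negative controls, and also in ES wells 2, 7, 8 and 30. Summed over 8 fixed markers, ES cell markers had a median of 6389 counts-per-million values (CPM, of gene reads) in ES wells and 22.7 in MEF wells. Over 8 fibroblast markers the medians were 175 and 6480 CPM. From their few reads, negative control wells had medians of 5771 CPM of ES cell markers (611 to 12712) and 1616 CPM of fibroblast markers (0 to 10694). The ES cell marker level therefore cannot tell an ES well from an empty one. ES wells 4, 7 and 30 stood apart with 2639 to 5794 CPM of fibroblast markers, and values without them are given where they matter. Markers of macrophages, endothelium and early endoderm had a median of 0 in both types. The labels name no separate cultures, so each type was taken as 1 sample, cells were not treated as replicates and no test was run. Each type also filled its own side of the plate, so plate side and cell type cannot be told apart. The spread given beside a ratio is the SD of that gene's log2 ratio among plate rows, with the number of rows that gave a ratio where it was under 8. It covers cells within 1 plate and no variation between cultures.

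Because 5′-end reads lie near transcript starts, the annotated promoter windows of the members are given as context, and no read position was compared with them. RefSeq windows (GRCm38.p6), each with 250 bases before the start and 50 after it, were found for 10 of 10 members, with 14 windows in all. CpG dinucleotides per window ranged from 2 in the second Mtf2 window to 41 in Suz12, and the median over 32851 windows was 7. Windows were searched on both strands for the E2F site forms TTTCCCGC, TTTGGCGC and TTTCGCGC, since E2F factors bind promoters of many proliferation genes. Suz12, Phf19 and Ezh2 each held 1 match, and 1.84% of the 32851 windows held any of the 3 forms. By form, TTTCCCGC stood in 1.07% of windows, TTTGGCGC in 0.514% and TTTCGCGC in 0.323%. The upstream 250 bases of Suz12 and Phf19 are shown for their match, those of Jarid2 and Aebp2 because these genes had the highest and the lowest ratio between the cell types, and 30 bases of Ezh2 around its start. Capitals mark the match, and the Phf19 match is the reverse complement of TTTCCCGC. The intervals are chr11:79992856-79993105 (+ strand) for Suz12, chr2:34913977-34914226 (− strand) for Phf19, chr13:44730524-44730773 (+ strand) for the first Jarid2 window, chr6:140624659-140624908 (+ strand) for the second Aebp2 window and chr6:47595020-47595049 (− strand) for Ezh2.
Suz12: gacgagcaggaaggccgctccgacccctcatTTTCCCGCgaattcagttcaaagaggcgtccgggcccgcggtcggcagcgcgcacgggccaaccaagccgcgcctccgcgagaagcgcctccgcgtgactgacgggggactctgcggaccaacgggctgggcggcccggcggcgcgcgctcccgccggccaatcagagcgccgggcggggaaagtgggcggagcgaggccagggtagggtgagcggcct
Phf19: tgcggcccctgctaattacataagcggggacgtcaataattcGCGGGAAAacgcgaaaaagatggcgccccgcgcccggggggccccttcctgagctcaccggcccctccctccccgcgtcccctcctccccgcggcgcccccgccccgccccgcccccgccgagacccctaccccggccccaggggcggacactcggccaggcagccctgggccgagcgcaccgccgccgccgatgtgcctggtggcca
Jarid2: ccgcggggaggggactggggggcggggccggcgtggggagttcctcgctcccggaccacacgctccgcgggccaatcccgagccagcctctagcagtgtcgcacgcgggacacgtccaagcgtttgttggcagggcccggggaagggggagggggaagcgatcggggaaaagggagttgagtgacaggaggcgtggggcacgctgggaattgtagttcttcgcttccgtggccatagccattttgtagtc
Aebp2: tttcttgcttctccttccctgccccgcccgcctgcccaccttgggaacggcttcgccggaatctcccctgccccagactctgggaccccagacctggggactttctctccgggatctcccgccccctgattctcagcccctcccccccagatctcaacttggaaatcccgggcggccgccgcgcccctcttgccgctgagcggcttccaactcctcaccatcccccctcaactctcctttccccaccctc
Ezh2: cgatggcgattgggttgctgcgTTTGGCGC
Counting the first transcribed base as 1, the match lay at −219 to −212 in Suz12, at −208 to −201 in Phf19 and at 4 to 11 in Ezh2. The windows shown for Jarid2 and Aebp2 held none of the 3 forms and 24 and 21 CpG dinucleotides. Of the 3 Aebp2 windows the one with the most CpG is shown, and the other windows held 4 each. A match is a string of letters and not a measured binding site.

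Across the 10 genes, the pooled CPM of 5, namely Jarid2, Phf19, Mtf2, Eed and Suz12, was higher in ES cells by 2-fold or more. Of all 12818 measured genes, 15.4% met this. Another 3, Aebp2, Ezh1 and Rbbp4, were higher in MEFs by 2-fold or more, which 58.5% of all measured genes were. Ezh2 and Rbbp7 lay within 2-fold. These directions are on the CPM scale, and spike-in RNA gave another one. An ES well had a median of 6.62 gene reads per spike-in read and a MEF well 152. When wells were scaled by spike-in reads, Jarid2 alone was higher in ES cells by 2-fold (3.11% of all genes), and the other 9 members were higher in MEFs (94.7%). With median-of-ratios scaling 7 members were higher in ES cells by 2-fold (27.6% of all genes) and Aebp2 alone was higher in MEFs (39%). The median log2 ratio of the members, ES cell over MEF, was 0.75 (SD 0.74 over 8 rows), whereas the median of all measured genes was −1.48 (SD 0.33). Read relative to that median, 7 of 10 members lay at least 2-fold above it and 1, Aebp2, at least 2-fold below it. The shares of all genes were 33% and 33.3%. The log2 ratio was larger than its SD over the rows for Jarid2, Aebp2 and Ezh1, and smaller than it for the other 7 members. The share of all measured genes that meet this was not counted. Ezh1 met it narrowly (−1.62, SD 1.56 over 4 rows), and its rows A, B and D had 0 ES reads.

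**Figure D1:**
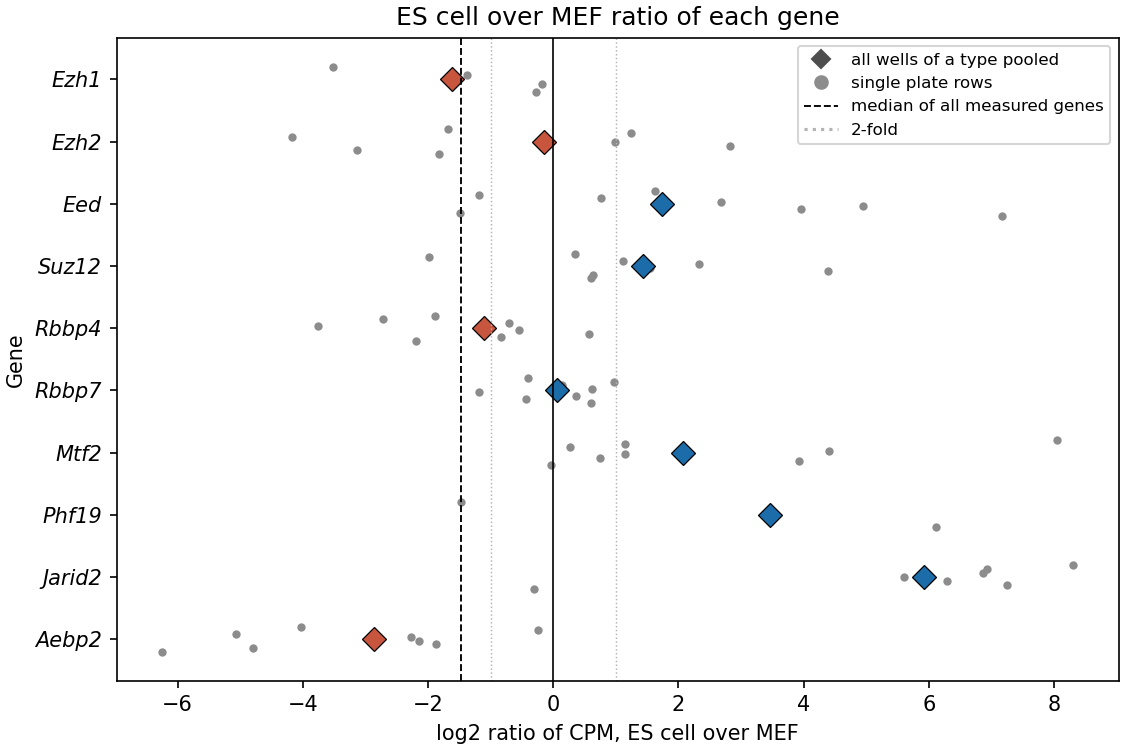
Log2 ratio of CPM, ES cell over MEF (x axis), for each PRC2 gene (y axis). Diamonds are all wells of a type pooled, grey points are single plate rows with a value, the dashed line is the median of all measured genes at −1.48 and dotted lines mark 2-fold. Jarid2 lies furthest to the right at 5.93 and Aebp2 furthest to the left at −2.86, with its 8 row values all below 0.

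The catalytic subunits were sparsely read in both types. Ezh2 had 133 reads in 6 of 45 ES cells and 593 in 15 of 44 MEFs. Per cell it ranged from 0 through a median of 0 to 310 CPM in ES cells, and from 0 through 0 to 196 CPM in MEFs. The ranges overlapped, and the pooled levels of 15.3 CPM (95% Poisson interval 12.8 to 18.1) and 16.9 (15.5 to 18.3) gave a log2 ratio of −0.15 (SD 2.56, 7 rows). ES cell 21 alone held 56 of the 133 ES reads.

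Ezh1, the alternative enzyme typical of cells that divide slowly, had 21 reads in 2 ES cells and 260 reads in 9 MEFs. Its per-cell levels ran from 0 through a median of 0 to 41.1 CPM in ES cells and from 0 through 0 to 97.3 CPM in MEFs. The pooled levels were 2.41 CPM (1.49 to 3.68) and 7.40 (6.52 to 8.35), a log2 ratio of −1.62 (SD 1.56, 4 rows). All 4 rows were lower in ES cells, but rows A, B and D had 0 ES reads and took a floor of 3 reads. Row C, with 3 reads in ES cells and 0 in MEFs, gave no ratio. The pooled ratio depended on ES cell 21, with 18 of the 21 reads, and MEF 49, with 93 of 260. Without both wells the log2 ratio was −3.75.

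As a share of the summed reads of both enzymes, which no scaling between types can move, Ezh2 made up 86.4% of 154 reads in ES cells (95% exact binomial interval 79.9 to 91.4) and 69.5% of 853 in MEFs (66.3 to 72.6). The intervals cover counting error only, since STRT reads here carry no molecular identifiers. By plate row the ES share ran from 25 to 100% over the 5 rows with a read and the MEF share from 22.9 to 100% over 8. The row ranges overlapped almost entirely, so the share did not separate the types beyond the spread between rows. Without the top well of each gene in each type the shares were 96.2% and 74.5%.

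Eed and Suz12, the partners that the enzyme needs, were each over 2-fold higher in pooled ES cells. Eed binds the methylated histone and activates the enzyme. It ranged from 0 through a median of 27.8 to 1662 CPM in ES cells and from 0 through 2.34 to 735 CPM in MEFs. Pooled, it had 142 CPM (134 to 150) from 1238 reads and 42.5 CPM (40.4 to 44.7) from 1495, 3.34-fold higher in ES cells. The log2 ratio of 1.74 was smaller than its SD of 3.0 over 8 rows, and 6 rows were higher in ES cells. MEF 55 held 40.9% of the MEF reads and ES cell 24 held 28.6% of the ES reads. Without both the log2 ratio was 2.01.

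Suz12, the scaffold of the core, ranged from 0 through 32.9 to 831 CPM in ES cells and from 0 through 29.6 to 1376 CPM in MEFs. The cells of both types overlapped over nearly the whole range, and the highest cell was a MEF. Pooled levels were 127 CPM (120 to 135) and 47.1 (44.8 to 49.4), 2.70-fold higher in ES cells. The log2 ratio was 1.43 (SD 1.81), with 7 of 8 rows higher in ES cells. At 20000 reads per cell it was 0.86, below 2-fold.

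The histone-binding pair behaved differently from each other. Rbbp7 was the member read in most cells of either type, 32 of 45 ES cells and 41 of 44 MEFs. It ranged from 0 through 68.5 to 1667 CPM in ES cells and from 0 through 112 to 782 CPM in MEFs, and its pooled levels of 140 CPM (133 to 148) and 135 (131 to 138.5) gave a log2 ratio of 0.06 (SD 0.71). Rbbp4 ranged from 0 through 11.7 to 539 CPM in ES cells and from 0 through 103 to 485 CPM in MEFs. Its pooled 57.8 CPM (52.9 to 63.1) was 2.16-fold below the 125 CPM (121 to 129) of MEFs, with a log2 ratio of −1.11 (SD 1.39) and 7 of 8 rows higher in MEFs. Relative to the median of all genes, Rbbp4 was 0.37 higher on the log2 scale. Rbbp7 made up 70.8% (68.6 to 73) of the 1728 reads of the pair in ES cells and 51.8% (50.8 to 52.9) of 9130 in MEFs. Of 8 ES rows, 5 had a higher Rbbp7 share than every MEF row.

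Mtf2, the Polycomb-like subunit known for recruiting PRC2 in ES cells, ranged from 0 through 0 to 387 CPM in ES cells and from 0 through 0 to 152 CPM in MEFs. It was read in 18 of 45 and 20 of 44 cells. Pooled levels of 90.02 CPM (83.8 to 96.5) and 21.4 (19.9 to 23) differed 4.21-fold, a log2 ratio of 2.07 (SD 2.79), with 7 of 8 rows higher in ES cells. Among the cells with a read, the median was 160 CPM in ES cells and 25.5 CPM in MEFs. MEF wells were deeper, so lower levels could be seen in them, and these medians were not corrected for depth. MEF 60, with 2 reads, entered at 1.95 CPM, whereas ES cell 7, with 1 read, entered at 42.7 CPM.

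Phf19 was the member read in the fewest cells, 2 ES cells and 3 MEFs. The ES cells with a read held 108 and 125 CPM, and the 3 MEFs held 1.21, 8.71 and 26.2 CPM. These few cells did not overlap, but the share of all measured genes with such a gap was not counted. MEF wells were also deeper, so lower levels could be seen in them. Pooled levels were 12.3 CPM (10.1 to 14.8) and 1.11 (0.789 to 1.52), with a log2 ratio of 3.47 (SD 3.85, 3 rows). With 76 of 107 ES reads in ES cell 47, this is a value of very few cells. Mtf2 made up 88% of the Mtf2 and Phf19 reads in ES cells and 95.1% in MEFs.

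Jarid2, an accessory subunit needed for normal recruitment of PRC2 in ES cells, was the member with the highest ratio. It ranged from 0 through a median of 0 to 174 CPM in ES cells and from 0 through 0 to 19.3 CPM in MEFs. It had 393 reads in 11 of 45 ES cells and 26 reads in 5 of 44 MEFs. Of the 11 ES cells with a read, 10 lay above the highest MEF. The share of all measured genes with a gap of this kind was not counted, and depth differed between the types. Pooled levels of 45.1 CPM (40.7 to 49.7) and 0.740 (0.483 to 1.08) differed 60.9-fold, a log2 ratio of 5.93 (SD 2.84, 7 rows). By plate row the ES reads in rows A to H were 101, 73, 0, 44, 41, 22, 112 and 0, and the MEF reads were 1, 0, 0, 0, 0, 1, 2 and 22. Jarid2 was thus higher in ES cells in 6 of the 7 rows with reads, and row H was the exception. MEF 56, in that row, held 21 of the 26 MEF reads. Without it and ES cell 33, which held 94 of the 393 ES reads, the log2 ratio was 7.99.

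Aebp2, a zinc finger subunit that stimulates the enzyme, showed the opposite order. Its levels ran from 0 through 0 to 180 CPM in ES cells and from 0 through 32.7 to 247 CPM in MEFs. Pooled levels of 8.83 CPM (6.97 to 11) from 77 reads and 64.2 (61.6 to 66.9) from 2257 reads differed 7.27-fold, a log2 ratio of −2.86 (SD 2.01). By plate row, ES reads in rows A to H were 0, 31, 0, 5, 16, 19, 5 and 1, and MEF reads were 154, 184, 398, 193, 252, 248, 377 and 451. Aebp2 was the only member higher in MEFs in 8 of 8 rows, which held for 15.7% of all measured genes, and 0 members were higher in ES cells in 8 of 8 rows (1.6% of genes). Row B came closest to equality, with 39.6 CPM in ES cells and 46.8 CPM in MEFs. Among the cells with a read, Aebp2 had a median of 46.4 CPM in 10 ES cells and 49.1 CPM in 36 MEFs. Fewer ES cells than MEFs thus had a read, but a single read is worth more CPM in the shallower ES wells. ES wells 2 and 8, with 3 reads and 1 read, entered at 180 and 73.7 CPM. Whether the difference lay in the number of cells or in the level per cell was not tested.

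**Figure D2:**
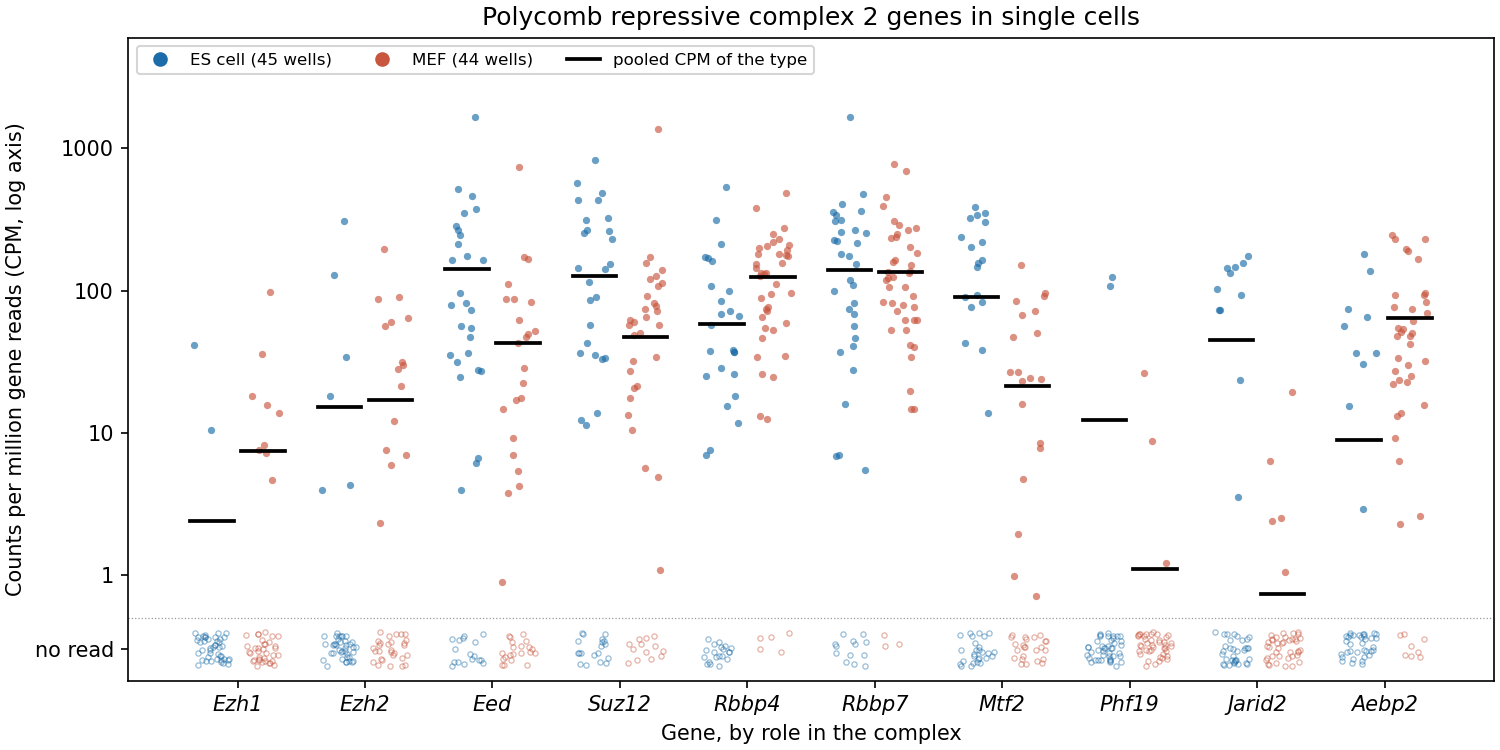
CPM in each well (y axis, log scale) for the 10 PRC2 genes ordered by role (x axis), with ES cells in blue and MEFs in red. Open circles at the foot are wells with no read and black bars are the pooled CPM of the type. Jarid2 was read in 11 ES cells and 5 MEFs, with the MEFs at 19.3 CPM or lower. Aebp2 was read in 10 ES cells and 36 MEFs, with medians of 46.4 and 49.1 CPM among them.

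Jarid2 and Aebp2 belong to the same form of the complex, and they had the highest and the lowest ratio of the members. A large contrast in their share follows from those ratios and is no separate evidence. Jarid2 made up 83.6% (79.96 to 86.8) of the 470 summed reads of both genes in ES cells and 1.14% (0.745 to 1.66) of 2283 in MEFs. By row the ES share ran from 0 to 100% over 7 rows and the MEF share from 0 to 4.65% over 8 rows. In 6 of 7 ES rows it was above every MEF row, and the exception, row H, had 1 Aebp2 read and 0 Jarid2 reads in ES cells. Cell by cell, 4 ES cells had reads of both genes, 7 of Jarid2 alone, 6 of Aebp2 alone and 28 of neither. In MEFs 5 cells had both, 0 had Jarid2 alone, 31 had Aebp2 alone and 8 had neither. At 20000 reads per cell the Jarid2 share was 71% of 31 reads in ES cells and 0% of 56 reads in MEFs.

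**Figure D3:**
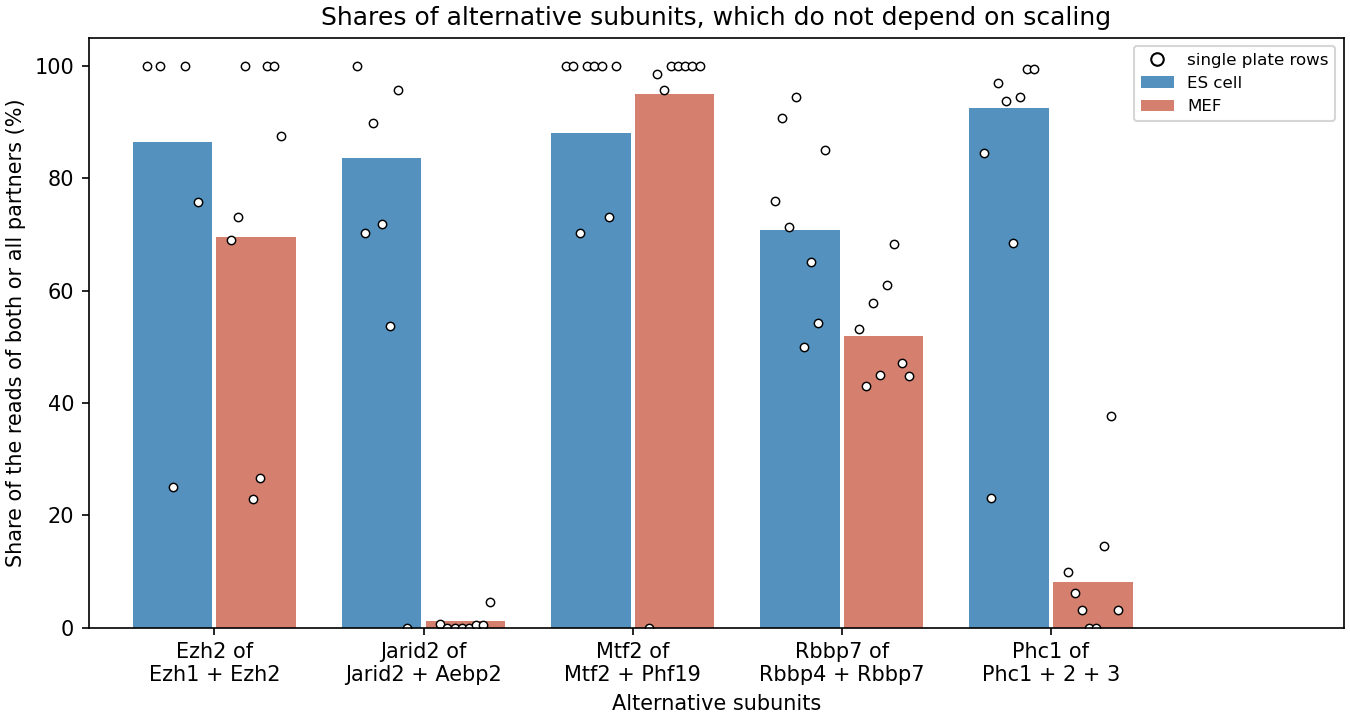
Share of reads (y axis, %) that the first-named gene holds among the genes grouped on the x axis, for ES cells in blue and MEFs in red. Bars are pooled reads and open points single plate rows. Although the axis is labelled alternative subunits, Jarid2 and Aebp2 belong to the same form of the complex and are not alternatives to each other. Jarid2 held 83.6% of the Jarid2 and Aebp2 reads in ES cells and 1.14% in MEFs, whereas the row values of the Ezh2 share overlap almost entirely.

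Depth affects how often a gene is seen, so each cell was also thinned to 20000 gene reads, which left out 3 of 45 ES cells and none of the MEFs. The background of stray reads can be judged from Pou5f1, a pluripotency factor that fibroblasts should lack. It had a read in 17 of 44 MEFs before thinning and in 1 of 44 after it, against 42 of 45 and 40 of 42 ES cells. Jarid2 had a read in 5 of 44 MEFs before thinning. Pou5f1 was far more abundant in ES cells than Jarid2 (731 and 45.1 CPM), so whether the Jarid2 reads in MEFs are stray was not tested. After thinning, Jarid2 was read in 10 of 42 ES cells (23.8%, 12.1 to 39.5) and in 0 of 44 MEFs. This allows a share of up to 6.82% by a limit of 3 cells, or 8.04% by the exact interval. Aebp2 was read in 5 of 42 ES cells (11.9%, 3.98 to 25.6) and 24 of 44 MEFs (54.5%, 38.8 to 69.6). The intervals take each cell as a unit and cover no variation between cultures, so they are no test of the types. Among the members, the thinned intervals did not touch for Jarid2 and Aebp2. The share of all measured genes for which this holds was not counted, so it is not known to be unusual. Rbbp4 came next, with 33.3% (19.6 to 49.5) and 63.6% (47.8 to 77.6), whose intervals overlapped slightly. Eed was read in 18 and 13 cells, Suz12 in 19 and 17, Mtf2 in 16 and 10, Rbbp7 in 24 and 32 and Ezh2 in 3 and 7 (of 42 ES cells and 44 MEFs). Ezh1 was read in 0 of 42 ES cells, which allows up to 7.14% by a limit of 3 cells or 8.41% by the exact interval, and in 1 MEF, and Phf19 in 2 and 1. From the thinned reads the log2 ratio was at least 2.94 for Jarid2 (22 reads against 0), 2.07 for Phf19, 1.32 for Mtf2 and −1.77 for Rbbp4, and these were the members it moved most. Ezh1, Ezh2 and Phf19 were near the limit of what this depth detects.

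**Figure D4:**
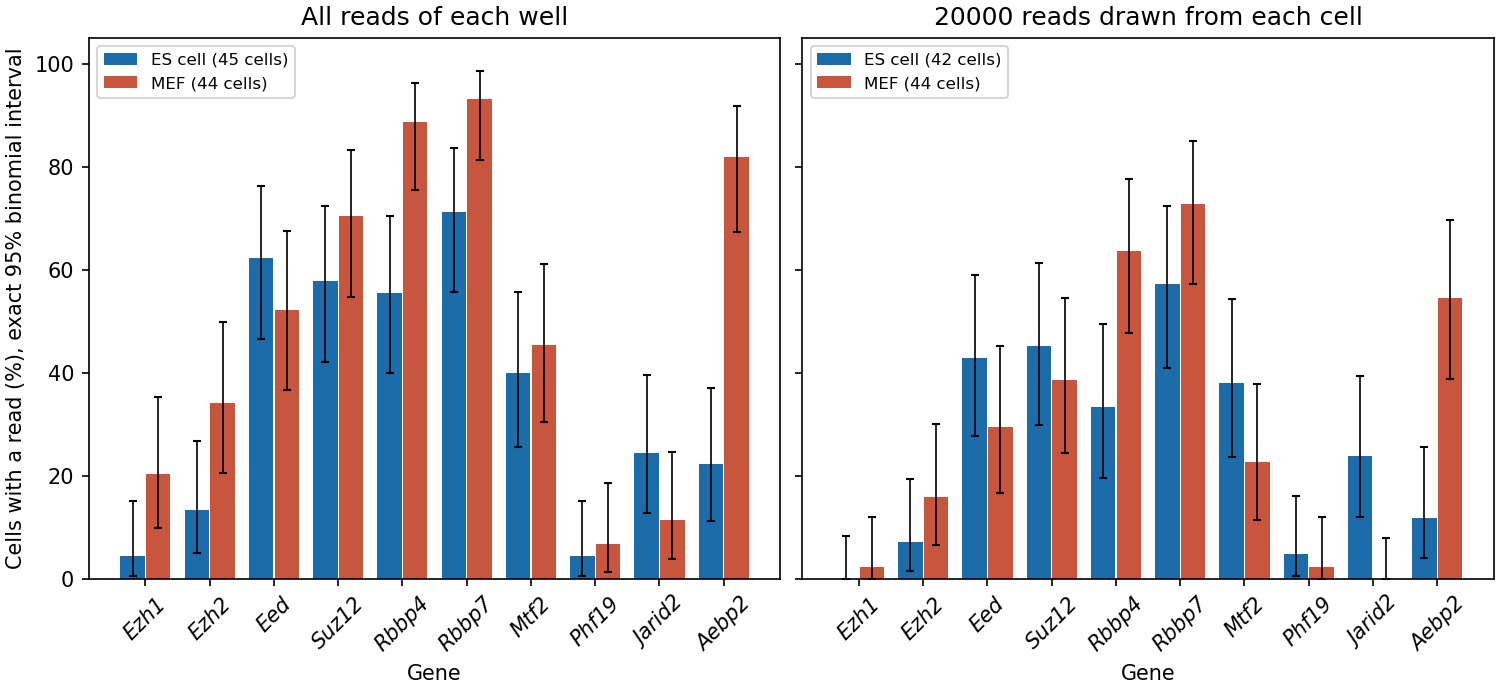
Share of cells with a read (y axis, %) for each PRC2 gene (x axis) in ES cells (blue) and MEFs (red), from all reads of a well on the left and from 20000 reads per cell on the right. Bars are shares and whiskers exact 95% binomial intervals, which take cells as units and cover no variation between cultures. After thinning the shares were 23.8% and 0% for Jarid2 and 11.9% and 54.5% for Aebp2.

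At 20000 reads an ES cell had a read of a median of 2 members (0 to 7) and a MEF of 3 (0 to 6), with 2 cells of each type at 0. Before thinning the medians were 3 and 5. Eed and Suz12 were read together in 8 cells of each type, and Ezh1 or Ezh2 in 3 ES cells and 8 MEFs. Summed over the members, the pooled level was 641 CPM in ES cells and 461 CPM in MEFs, and 571 and 473 CPM after thinning.

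The order of the members was given as CPM per kilobase of the deposited transcript length, although 5′-end reads need no length term. In ES cells the levels per kilobase were 68.9 for Eed, 61.8 for Rbbp7, 29.1 for Suz12, 22.2 for Mtf2, 13.1 for Rbbp4, 9.16 for Jarid2, 5.72 for Ezh2, 3.28 for Phf19, 1.33 for Aebp2 and 0.574 for Ezh1. No neighbours in that order differed by more than their spread over rows. MEF levels per kilobase were 59.3 for Rbbp7, 28.4 for Rbbp4, 20.6 for Eed, 10.8 for Suz12, 9.70 for Aebp2, 6.33 for Ezh2, 5.27 for Mtf2, 1.76 for Ezh1, 0.296 for Phf19 and 0.150 for Jarid2. Per kilobase the difference of Rbbp7 and Rbbp4 exceeded the spread, and that of other neighbours did not. It rested on the length term, since in plain CPM the pair had 135 and 125 and Rbbp7 was higher in 4 of 8 rows. In plain CPM Aebp2 came next after that pair in MEFs, at 64.2, above Suz12 at 47.1 and Eed at 42.5. Aebp2 ranked near the end in ES cells and in the middle in MEFs, and Jarid2 in the middle in ES cells and last in MEFs.

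Of the members, 4 genes were compared with all 11054 genes of at least 100 reads, by Pearson's r of log2(CPM + 10) over 16 sums of plate row and cell type. These sums share a plate and differ in depth by cell type, so the correlations are descriptions. They hold both types, so r also takes in the difference between the types. The genes named are the highest of all compared, and no background r is given. Jarid2 was most like Foxh1 (r = 0.92), a transcription factor of Nodal signalling with 318 reads in ES cells and 0 in MEFs, then Ooep (0.89), an oocyte and early embryo gene, and Gm11968 (0.88). Eed was most like Zfp57 (0.83), a zinc finger protein that maintains imprints, Phc1 (0.80), a Polycomb repressive complex 1 subunit, and Cirh1a (0.80), a nucleolar protein. Suz12 was most like Dtymk (0.87), the thymidylate kinase, 2610101N10Rik (0.84) and Syngr1 (0.82). Ezh2 was most like Ndufv1 (0.88), a mitochondrial complex I subunit, Cebpg (0.83), a leucine zipper transcription factor, and Dgkh (0.81), a diacylglycerol kinase.

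The other genes of the Polycomb system were read from lists chosen for their function. Of 5 rows for other PRC2 accessory genes, 4 were measured and these had a median log2 ratio of 0.75 (SD 2.08). By 2-fold or more, 1 favoured ES cells and 1 favoured MEFs, and 2 lay between. Phf1, the third Polycomb-like gene, had 6.77 CPM in ES cells and 14.4 CPM in MEFs. E130012A19Rik, now named Epop, had 8.60 and 5.75 CPM. Lcor had 30 reads, all in 1 ES cell, and 0 in MEFs, so its level was at least 40.3-fold higher there, with a floor of 3 reads over all MEFs. Lcorl had 26.3 and 13.9 CPM, with 218 of its 229 ES reads in 1 cell. Single ES cells also held 58 of the 59 ES reads of Phf1 and 63 of the 75 of E130012A19Rik, so all 4 values rest largely on 1 ES cell each.

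Polycomb repressive complex 1, which binds the mark that PRC2 makes and ubiquitinates histone H2A, was read through 23 measured genes. Of these, 5 favoured ES cells by 2-fold or more (15.4% of all measured genes), 14 favoured MEFs (58.5%) and 4 lay between, shares near those of all genes. With median-of-ratios scaling 7 and 10 did so, and with spike-in scaling 1 and 22. The CPM values gave a median log2 ratio of −1.88 (SD 0.66). That is 0.40 below the median of all genes, while the PRC2 members lay 2.23 above it. Within this list, alternative subunits differed in direction. Cbx7, the chromodomain subunit typical of ES cells, had 54.8 CPM in ES cells and 0.967 CPM in MEFs. Phc1 had 108 and 11.9 CPM, and its partner gene Phc2 had 6.19 and 98.7 CPM. Phc1 held 92.5% of the Phc1, Phc2 and Phc3 reads in ES cells and 8.09% in MEFs. For this share, 7 of 8 ES rows lay above every MEF row, against 6 of 7 rows for the Jarid2 share. Yaf2, a subunit of the variant complexes, had 5.50 and 111 CPM.

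Enzymes that remove the marks were also read. Of 7 measured genes of H3K27 demethylation and H2A deubiquitination, 0 favoured ES cells by 2-fold or more, 3 favoured MEFs, which 58.5% of all measured genes did, and 4 lay between. The median log2 ratio was −0.80 (SD 1.29), 0.68 above that of all genes. With median-of-ratios scaling 1 favoured each type, and with spike-in scaling 7 favoured MEFs. Kdm6b, an H3K27 demethylase, had 10.3 CPM in ES cells and 54 CPM in MEFs. Asxl1, a cofactor of the deubiquitinase Bap1, had 31.9 and 73.9 CPM, Bap1 itself 26.1 and 37.4 CPM, and Usp16, another H2A deubiquitinase, 23 and 61.8 CPM.

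Developmental genes widely used as Polycomb targets were mostly low or unread in ES cells. Of 43 genes, 16 had no read in either type and 25 were measured. Of those 25, 24 favoured MEFs by 2-fold or more, against 58.5% of all measured genes, and 1, Tbx3, favoured ES cells (39.7 and 10.2 CPM). The 20-read minimum could be met through MEFs alone, which held more reads in all. Nkx6-1, Hand2, Msx1 and Hoxd8, with 0 ES reads, passed in that way and could then only favour MEFs. The same holds for Gata6, Irx5, Runx2 and Meis1, with 2 ES reads each. Hoxa9, Irx3, Msx2, Twist2, Tbx5 and Hoxb5, with 5 to 15 ES reads, also needed MEF reads to pass. The filter thus set part of the count of 24 in advance. The share over all genes carries the same limit. Tbx3 itself was higher in ES cells in 3 plate rows and in MEFs in 4, and its log2 ratio of 1.96 was below its SD of 3.77. With median-of-ratios scaling 1 of the 25 favoured ES cells and 21 favoured MEFs, and with spike-in scaling 0 and 25. On the CPM scale, 19 of the 25 lay 2-fold or more below the median of all genes. The median log2 ratio was −3.59 (SD 0.46), against −1.48 for all genes and 0.75 for the PRC2 members. Hoxa5 had 7.45 CPM in ES cells and 155 CPM in MEFs, Twist1, a mesenchymal factor, 11 and 121 CPM, Tbx15 9.17 and 109 CPM, and Cdkn2b, a cell cycle inhibitor, 11.6 and 131 CPM. Fibroblasts express several of these genes as part of their identity, and whether their levels follow PRC2 was not tested. Genes of S phase, among which E2F targets are common, had the direction of Eed and Suz12 in 10 of 19 cases by 2-fold or more (15.4% of all genes), while 3 favoured MEFs and 6 lay between, with a median of 1.48 (SD 1.89). With median-of-ratios scaling 13 favoured ES cells and 3 MEFs, but with spike-in scaling all 19 favoured MEFs. The part of proliferation in the member levels was not tested.

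**Figure D5:**
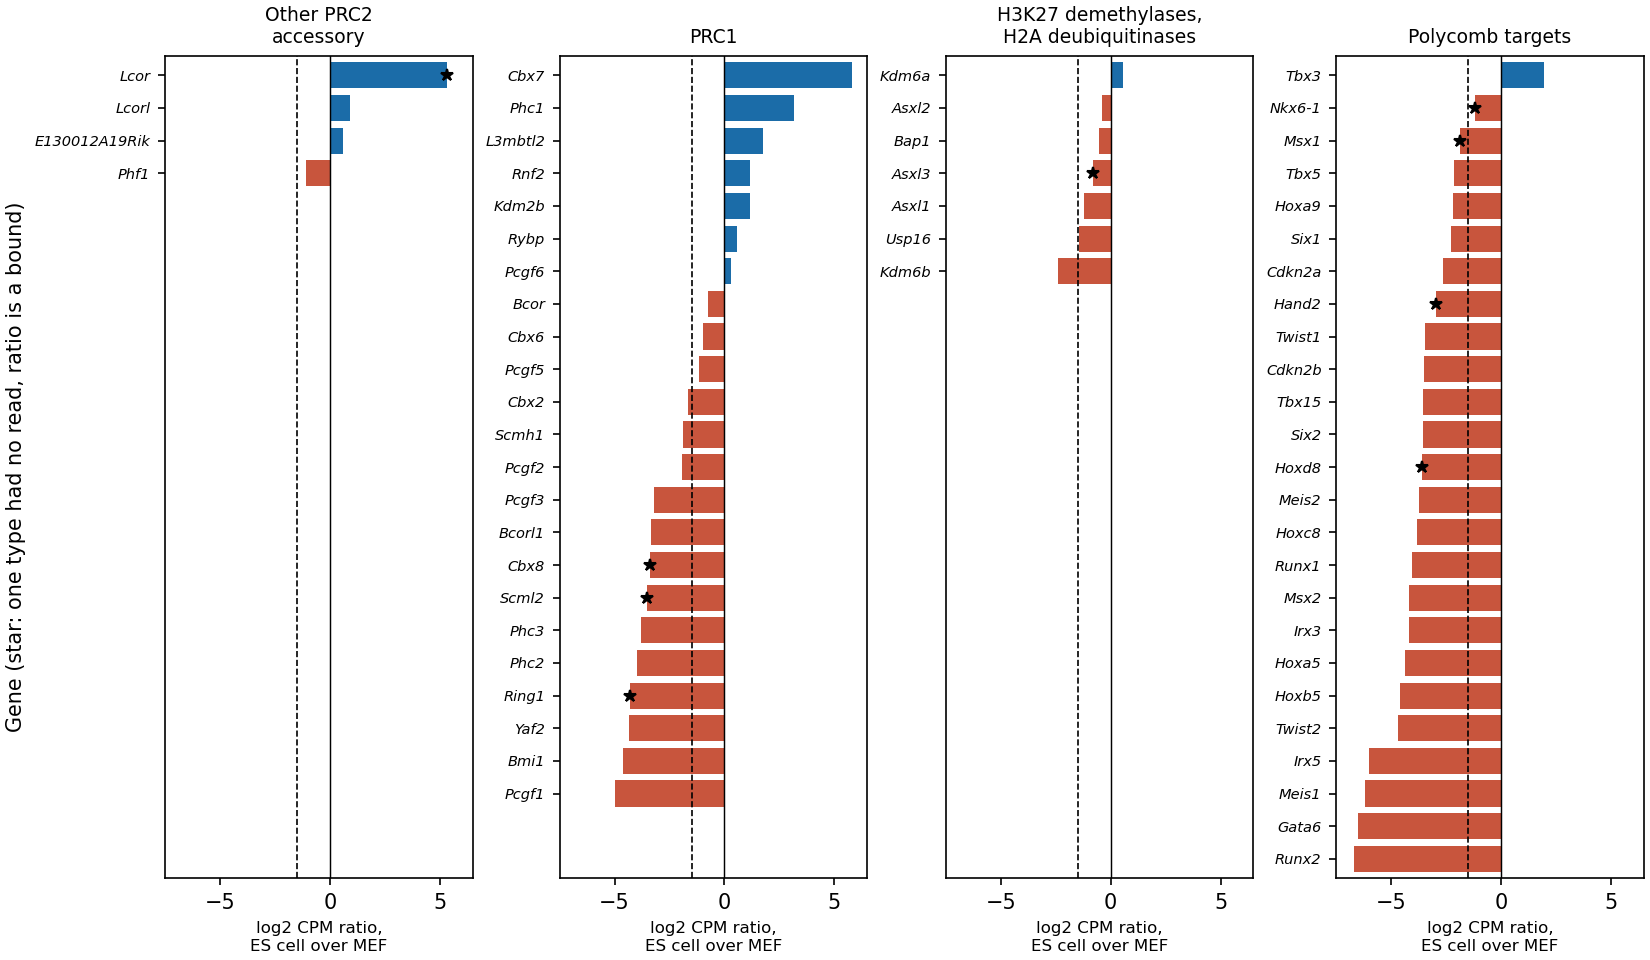
Log2 ratio of CPM, ES cell over MEF (x axes), for every measured gene (y axes) of 4 lists around PRC2, with blue bars higher in ES cells, red bars higher in MEFs, and the dashed line at the median of all measured genes. Stars mark genes with no read in 1 type, whose ratio is a bound. Cbx7 and Phc1 lead the Polycomb repressive complex 1 list, and Tbx3 is the single target gene to the right of 0.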

How the data were processed

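Single-cell reads of 96 wells of 1 plate were deposited by the authors as raw counts per gene, repeat type and spike-in RNA in each well, with no normalisation. Per the file headers, these counts are the upper estimate of exon hits and take in multiply mapped reads. A further deposited count of unique reads showed that 99.96 to 100% of member reads were unique. Bowtie was named in the submitters' processing notes, while its version, the genome build and the annotation are not given in the sources used here. The file's positions did not match GRCm38, so it is used only for the promoter windows. All wells had distinct values, and 3 ES wells had under 10000 gene reads (replicates 32, 44 and 46). No doublet caller was run.

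Counts were summed over the wells of a type and divided by gene reads to give CPM. Where a type had 0 reads, 3 reads over its wells stood in as a floor, and no ratio was formed where both sums were at or under it or where the floor left the direction unknown. Thinning drew 20000 reads per cell without replacement (seed 1). Poisson intervals and Clopper-Pearson intervals of read shares, at 95%, cover counting error only. Clopper-Pearson intervals of shares of cells take cells as units and cover no variation between cultures. Python 3.11.15, numpy 2.4.6, pandas 2.3.3 and scipy 1.17.1 were used, and the ratio step was tested on simulated data. From each of the 4 lists around PRC2, the 4 measured genes with the largest absolute log2 ratio with 10 CPM added are named. For Jarid2, Eed, Suz12 and Ezh2 the 3 genes with the highest r are named. S phase genes are given as counts only. One gene of the lists is not reported here. Tbx3 was named after its values were seen. The members and lists were chosen with earlier results of these data known. Alternatives were other scalings, thinning, other read minimums, background subtraction, rows A to D or E to H alone, an added 10 CPM and the removal of single or doubtful wells.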

Additional observations from a re-analysis of the deposited data

Results flagged for a closer look

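Among the 4 negative control wells, 1 well, number 94, held 1 Suz12 read and 3 Rbbp7 reads, while the other wells held 0 of both. A single well far from the others is what brought these values here, and in groups of 4 some such gaps arise by chance. The other 8 members had 0 reads in all 4 negative control wells. That well had 4662 gene reads, below the minimum for a cell well.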

How the results depend on the processing

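Jarid2 stayed higher in ES cells and Aebp2 higher in MEFs under all 14 alternatives tried. Over the members, 123 alternative log2 ratios moved by less than the SD over rows, 12 moved further, and 4 of members past 2-fold turned. Ezh2 and Rbbp7, within 2-fold, changed sign under 3 alternatives each, to between 0.27 and 1.16 for Ezh2 and to between −4.50 and −0.03 for Rbbp7. Scaling by spike-in reads turned Eed (−2.82), Suz12 (−3.13), Mtf2 (−2.49) and Phf19 (−1.10) and left 1 member higher by 2-fold in ES cells, with 9 higher in MEFs. It put the members' median log2 ratio at −3.82 and that of all genes at −6.04, and the cause was not tested. With median-of-ratios scaling the members' median was 1.88, the median of all genes was −0.36, and 1 member was higher by 2-fold in MEFs. That count was also 1 with ribosomal protein genes left out of the totals (47.1% of all genes), in plate rows E to H alone (58.3%) and with 10 CPM added (32.5%). The members' median lay 2.23 above that of all genes on the CPM scale, which spike-in scaling cannot move, 1.63 above it as a mean of per-cell CPM and 1.03 with 10 CPM added. The Ezh2 share of Ezh1 and Ezh2 reads in ES cells was 96.2% without the top well of each gene, 100% after thinning, 96.2% in rows A to D and 75.7% in rows E to H. In MEFs it was 77.1% as a mean of per-cell CPM, 74.5% without the top wells, 91.7% after thinning and 66.1% in rows E to H. Without thinning a median of 5 members was read per MEF. Without ES wells 4, 7 and 30, the Jarid2 log2 ratio was 5.95 and the Aebp2 ratio −2.88. Thinned Ezh1 reads (0 and 1) gave no ratio. No paired analysis was possible because the labels give the cell types no shared replicate numbers, and plate rows served only to give a spread. Depth limits Ezh1, Ezh2 and Phf19 most, which were read in 2 to 6 ES cells.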

Other observations

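Kdm6a, the X-linked H3K27 demethylase, had 120 reads in ES cells (13.8 CPM), 107 of them in 1 of the 3 cells with a read, and 328 reads (9.33 CPM) in 12 of 44 MEFs. It was named after its values were seen. Its 57.1% share of the Kdm6a and Kdm6b reads in ES cells, against 14.7% in MEFs, therefore rests mainly on 1 cell.

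Rnf2, the main ubiquitin ligase of Polycomb repressive complex 1, had 929 reads in 19 ES cells, where its partner gene Ring1 had 0, and 1652 reads in MEFs, where Ring1 had 239. Rnf2 thus held 100% (99.6 to 100) of the pair in ES cells and 87.4% (85.8 to 88.8) in MEFs by counting intervals. MEF rows ran from 52.5 to 100%, so 0 ES rows lay above every MEF row. The pair was also named after its values were seen.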
